A study of Mus musculus with 7 samples.

Results

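The early Stra8-high germ cells of the E14.5 mouse ovary were defined as cells in which the meiotic gatekeeper Stra8 was already abundant while the chromosome axis gene Sycp3 was still low. They were taken from the E14.5 library as cells with at least 1000 detected genes, at least 3 unique molecular identifiers (UMIs) of Dazl and Ddx4 together, no Wnt6 UMI, at least 300 Stra8 and fewer than 600 Sycp3 counts per 1000000 UMIs of the cell (CPM). There were 1206 such cells, which was 53.5% (exact binomial 95% interval 51.4 to 55.5) of the 2256 E14.5 cells passing the germ cell gate and 12.3% of the 9800 E14.5 cells with at least 1000 genes. The cells were thus chosen by their Stra8, Sycp3, Dazl, Ddx4 and Wnt6 counts, so the levels of these genes are descriptions, and all other genes were measured in the same cells.

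The series followed the mouse gonad or ovary by droplet single-cell RNA sequencing from E11.5 to P5, with 1 library at each of 7 ages. All came from untreated wild-type C57BL/6J mice, each from pooled gonads dissociated with trypsin for longer at older ages, and together held 52542 cell barcodes. The E14.5 library had 11417 barcodes and 88627169 UMIs. With 1 library at each age, age and library cannot be told apart, no p-value was computed, and every interval covers counting error only.

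Few cells of the other libraries met the same limits. The germ cell gate alone took 9 cells in the E11.5 library, 283 in the E12.5 library and 814 in the E16.5 library. The Stra8 and Sycp3 limits left 8 of these at E12.5 (2.83%) and 1 at E16.5 (0.123%). The E18.5 library had 347 gated cells, P1 had 200 and P5 had 52, and no gated cell of these or of the E11.5 library met the limits. Among the members' barcodes, 10 were also present in the E11.5 library, 9 in the E12.5, 9 in the E18.5, 11 in the P1 and 8 in the P5 library, and none in the E16.5 library. The whole E16.5 library shared 1 barcode with E14.5, where the other libraries shared 63 to 136, so it stood apart, the reason was not tested and its levels are given beside the others with that limit.

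Germ cells that reach the fetal ovary keep primordial germ cell genes and divide by mitosis until retinoic acid and BMP signals bring on Stra8. STRA8 acts with its partner MEIOSIN at the promoters of meiotic genes, and the cell passes through a last DNA replication during which cohesins carrying REC8 and SMC1B are loaded. Axis and synaptonemal complex proteins then build up along the chromosomes, programmed breaks are made and the pluripotency genes are shut off.

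Among the genes that differed most between the early cells and the Stra8-low germ cells of the same library, described below, 3 had the E-box CACGTG, a sequence read by basic helix-loop-helix factors, just before the transcription start. The 250 bases before the transcription start are printed for Taf7l, Tex12 and Sycp1, where capitals mark the E-box, and for Meioc, where capitals mark the E2F sequence TTTCCCGC on the opposite strand. They were read from RefSeq on GRCm38.p6 and run 5′ to 3′ toward the start. The windows are chrX:134476491-134476740 (minus strand) for Taf7l, chr9:50561269-50561518 (minus) for Tex12, chr3:102936101-102936350 (minus) for Sycp1 and chr11:102665335-102665584 (plus) for Meioc.
Taf7l: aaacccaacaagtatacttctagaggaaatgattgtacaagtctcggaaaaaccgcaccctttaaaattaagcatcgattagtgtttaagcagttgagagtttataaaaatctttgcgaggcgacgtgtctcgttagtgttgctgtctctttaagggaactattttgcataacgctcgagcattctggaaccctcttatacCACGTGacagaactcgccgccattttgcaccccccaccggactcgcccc
Tex12: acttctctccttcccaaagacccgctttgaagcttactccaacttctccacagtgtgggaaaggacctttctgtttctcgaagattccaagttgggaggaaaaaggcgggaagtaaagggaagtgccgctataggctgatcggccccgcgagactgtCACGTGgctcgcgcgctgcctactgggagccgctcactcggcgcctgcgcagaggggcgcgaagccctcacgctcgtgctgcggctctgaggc
Sycp1: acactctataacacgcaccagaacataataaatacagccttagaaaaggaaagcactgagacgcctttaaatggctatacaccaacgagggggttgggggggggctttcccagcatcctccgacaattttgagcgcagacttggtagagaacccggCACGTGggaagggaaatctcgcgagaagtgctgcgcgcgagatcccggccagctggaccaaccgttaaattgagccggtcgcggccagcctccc
Meioc: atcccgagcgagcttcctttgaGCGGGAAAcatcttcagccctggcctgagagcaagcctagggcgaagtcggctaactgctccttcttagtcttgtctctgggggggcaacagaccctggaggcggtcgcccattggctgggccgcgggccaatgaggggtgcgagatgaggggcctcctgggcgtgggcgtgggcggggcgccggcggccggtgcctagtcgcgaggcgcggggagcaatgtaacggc
The E-box lay 49 bases before the start in Taf7l, 93 in Tex12 and 94 in Sycp1, and the E2F sequence 228 bases before the start in Meioc. The E2F sequence was in 1 of the 10 genes named as most enriched over the Stra8-low cells, in 3 of 75 matched higher genes (4.0%) and in 2.48% of the genes compared. The E-box was found in 3 of the same 10. It was found in 8 of the 75 windows matched among all 88 genes at least 2-fold higher (10.7%), beside 11.1% of 4323 windows of the genes compared and 6.86% of 27025 genes in the table, so the wider set held it at about the background share. The sequence CNCCTCAG, searched on both strands as a STRA8 motif, was in none of the 10 and in 13.3% of the 75, beside 9.11% of the genes compared. No searched sequence occurred in the windows of Stra8, Rec8 or Sct.

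The label was checked against the markers given for these cells. For a class of cells, CPM are the UMIs of a gene summed over the class per 1000000 UMIs of the class. Stra8 (chr6:34920163-34939344, plus strand, GRCm38) stood at 1335 CPM in the early cells (Poisson 95% interval 1318 to 1352) and 12.6 CPM in 1306 mesenchymal cells of the same library. Dazl (chr17:50279395-50293636, minus), an RNA-binding protein that licenses germ cells for gametogenesis, stood at 1306 CPM (1289 to 1323). The mesenchymal cells were taken as cells without a Dazl or Ddx4 UMI, so these genes were at 0 there by choice. Rec8 (chr14:55618037-55625395, plus), the meiotic cohesin subunit, stood at 174 CPM, beside 14.3 CPM in the mesenchymal cells. Sct (chr7:141278330-141279133, minus), which encodes the peptide hormone secretin, stood at 163 CPM, beside 3.26 CPM in the mesenchymal cells. The Stra8 and Dazl levels followed from the limits, and Rec8 and Sct, which the limits did not use, were above their level in the mesenchymal cells. That contrast bears on germ cell identity only. In the Stra8-low and the late germ cells described below, Rec8 stood at 53.4 and 167 CPM and Sct at 122 and 107 CPM. Rec8 thus did not set the members apart from the late cells, and Sct differed from both classes by less than 2-fold.

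Markers of other cell kinds were low in the early class apart from those of red cells. The 12 supporting cell markers summed to 140 CPM, of which Gng13 made 85.1 CPM and Wnt6 was at 0 by the rule. Mesenchymal markers summed to 38.8 CPM, with Col3a1 highest at 10.4 CPM. Epithelial markers summed to 36.9 CPM and endothelial markers to 35.5 CPM, the latter mainly Pecam1 at 21.2 CPM, an adhesion gene that primordial germ cells also express. Immune markers summed to 2.15 CPM with Ptprc, the defining leukocyte gene, at 0, and Y-linked genes had no UMI. Erythroid genes summed to 1967 CPM, led by Hbb-bs at 875 CPM.

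A member had a median of 13569 UMIs (5th to 95th percentile 4896 to 25416) and the class a total of 17240911 UMIs. Its Stra8 level had a median of 1228 CPM, with quartiles at 779 and 1937, and its Stra8 UMI count a median of 16. No gap in either gene set the members apart from the cells just outside. In the members, 73 cells had Stra8 between 300 and 400 CPM, and 76 cells that met the other limits stood just outside, between 200 and 300. At the other limit, 96 members had Sycp3 between 500 and 600 CPM and 82 cells just outside had 600 to 700. Sycp3 was without a UMI in 178 members (14.8%).

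**Figure D1:**
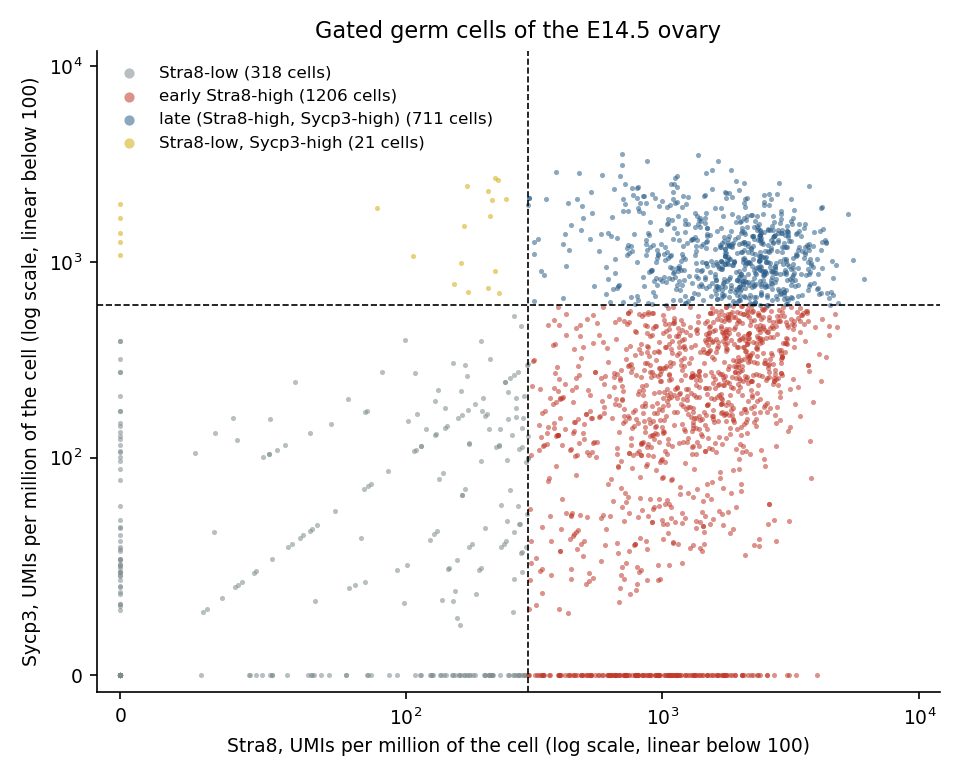
Stra8 (x axis) and Sycp3 (y axis) of each E14.5 germ cell, in CPM of the cell on log axes, with the limits that define the classes as lines. The 1206 early cells lie to the right of the Stra8 limit and under the Sycp3 limit, with 318 Stra8-low cells to their left, 711 late cells above them and no gap at either limit.

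The other E14.5 germ cells gave 3 neighbouring classes. The 318 Stra8-low cells (14.1%) had less than 300 Stra8 CPM and less than 600 Sycp3 CPM, and the 711 late cells (31.5%) were at or above both limits. Another 21 cells (0.931%) were Stra8-low and Sycp3-high and were not used. Median UMIs were 16986 in the Stra8-low cells, 13569 in the early cells and 10743 in the late cells, so depth moved with the classes and its part in the differences was not tested. After each cell with at least 5000 UMIs was thinned to 5000, the median number of genes was 1777 in the Stra8-low cells, 1843 in the early cells and 1918 in the late cells.

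Against the Stra8-low cells, the early cells had higher levels of named meiotic genes such as Meioc, Tex12 and Sycp1 and lower levels of primordial germ cell genes such as Nanog and Tfap2c. Of 5251 genes at 20 CPM or more in either class, 88 (1.68%) were at least 2-fold higher in the early cells and 68 (1.29%) at least 2-fold lower, around a median log2 ratio of 0.07 over all genes compared. These shares are the background for the gene lists below, and a gene past 2-fold is described as such without a test. A gene that reached 20 CPM only in the class where it is high could hardly fall on the other side, and this holds for 66 of the 88 higher and 35 of the 68 lower genes.

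Meioc had the largest difference on the scale used to rank the genes, at 74.0 CPM in the early and 11.0 CPM in the Stra8-low cells, a ratio of 6.74 (95% interval 5.21 to 8.86). MEIOC stabilises meiotic transcripts and keeps the cell from falling back into mitosis. Tex101, a germ cell surface protein, stood at 147 CPM beside 32.4 CPM (ratio 4.52). Taf7l, an X-linked germ cell paralog of a general transcription factor subunit, stood at 66.2 CPM beside 14.2 CPM (ratio 4.66). Tex12 and Sycp1, which encode central element and transverse filament proteins of the synaptonemal complex, were 3.47-fold and 2.91-fold higher, at 226 and 338 CPM. All of these genes were higher again in the late cells, with Meioc at 159 CPM.

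Further genes past 2-fold higher, named by the ranking or, for Ccnd1, from the fixed lists, included regulators of transcription and the cell cycle. Cited1, an X-linked transcriptional coactivator, stood at 126 CPM in the early and 47.7 CPM in the Stra8-low cells. Msx1, a homeobox gene of the BMP response, stood at 78.8 CPM beside 27.9 CPM (ratio 2.83, 95% interval 2.39 to 3.36). Cdkn2d, an inhibitor of the cyclin D kinases, was at 121 CPM beside 48.8 CPM, and Ccnd1, which encodes cyclin D1, was at 124 CPM beside 53.4 CPM. An inhibitor of the cyclin D kinases and a cyclin D were thus both past 2-fold in the same class.

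The genes named as lower in the early than in the Stra8-low cells included those for a metallothionein, p53 and respiratory chain subunits. Mt2, a metallothionein, stood at 46.3 CPM beside 173 CPM, 3.74-fold lower. Trp53, which encodes the p53 protein, was 2.51-fold lower at 51.8 CPM. Cox7b and Cox8a, the widely expressed forms of cytochrome c oxidase subunits, were at 408 and 464 CPM beside 936 and 1043 CPM, 2.29-fold and 2.25-fold lower. Their paralogs were at much lower levels in both classes, as Cox7b2 stood at 11.7 CPM beside 10.4 CPM and Cox8c at 12.8 CPM beside 7.56 CPM. With members limited to Sycp3 under 400 CPM, Cox8a was no longer past 2-fold.

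Nanog, a pluripotency factor, was at 4.93 CPM in the early cells, 21.1 CPM in the Stra8-low cells and 0.52 CPM in the late cells. Tcl1, Tfap2c and Dppa2, genes of primordial germ cells, were also at least 2-fold lower. This made 4 of the 19 measured genes of the pluripotency and primordial germ cell list, whose median log2 ratio was -0.70. Of the 4, Nanog and Tcl1 reached 20 CPM in the Stra8-low cells alone, so they could hardly have counted as higher. Pou5f1 and Sox2, other pluripotency factors, differed by less than 2-fold, at 239 beside 396 CPM and 96.7 beside 132 CPM. Dppa3 stood at 863 CPM beside 1205 CPM. Pou5f1 and Dppa3 were therefore still abundant in the early cells, where Nanog had a UMI in 6.1% of cells, beside 27.4% of the Stra8-low cells at their greater depth.

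Globin transcripts were also lower in the early cells, and 4 of the 68 lower genes were Hbb-y, Hba-x, Hba-a1 and Hba-a2. Hbb-y stood at 71.0 CPM in the early and 542 CPM in the Stra8-low cells, Hba-a1 at 360 and 919 CPM, and the erythroid markers together at 1967 and 4602 CPM. The part of this red cell signal in the other differences was not tested.

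The fixed lists of meiotic genes had members past 2-fold in 1 direction. Of the synaptonemal complex and axis genes, 4 of 8 measured were 2-fold higher than in the Stra8-low cells (Tex12, Sycp1, Syce1 and 4930447C04Rik, also called Six6os1). Of the 29 break formation and recombination genes, 10 reached 20 CPM and 5 were higher, of which Tex11, Hfm1 and Dmc1, the meiotic strand exchange protein, reached it in the early cells alone. Of the meiotic entry regulators other than Stra8 and Dazl, 3 of 18 were higher, Meioc, Dmrtc2 and Msx1, and none was lower, with Meioc and Dmrtc2 at 20 CPM in the early cells alone. Of the germline genes with methylated promoters in somatic cells, 5 of 11 were higher, Taf7l, Tex101, Sycp1, Brdt and Slc25a31, with Taf7l and Brdt at 20 CPM in the early cells alone. Beside these shares stands the 1.68% of all genes compared, and the lists were chosen with earlier results known.

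Of 7 cohesin genes, 1 was past 2-fold higher than in the Stra8-low cells (Rec8), 1 was lower (Rad21) and 5 were between the limits. Rec8 was 3.25-fold higher in the early than in the Stra8-low cells (95% interval 2.89 to 3.68), at 174 and 53.4 CPM, and was at 167 CPM in the late cells. Smc1b, the meiotic SMC1 form, was 1.95-fold higher at 925 CPM and reached 2048 CPM in the late cells. Stag3, the meiotic STAG subunit, stood at 54.3, 88.8 and 164 CPM in the Stra8-low, early and late cells. Rad21, the mitotic counterpart of Rec8, stood at 152, 75.6 and 24.7 CPM, whereas Smc3, the subunit common to mitotic and meiotic cohesin, stood at 451, 445 and 587 CPM.

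Of 19 retinoic acid genes, 14 were below 20 CPM in both classes, and 0 of the 5 measured were past 2-fold against the Stra8-low cells. With 1.68% of all genes compared higher and 1.29% lower, a list of 5 would hold few such genes. The 0 is therefore no result about the pathway. Against the E12.5 germ cells described below, 2 of 5 measured were higher, Crabp2 and Crabp1, beside 7.99% of all genes compared. Crabp2 reached 20 CPM in the early cells alone. Against the late cells, 1 of 6 was higher, Nrip1, at 20 CPM in the early cells alone, beside 4.19%. None was lower in either comparison. Crabp1, a cellular retinoic acid-binding protein, stood at 83.1 CPM beside 86.9 CPM. Rara, a receptor, was at 16.8 CPM in the early cells and Rarb, a receptor and target gene, at 1.10 CPM. Cyp26b1, the enzyme that degrades retinoic acid in the fetal testis, was at 1.57 CPM, and Cyp26a1 had 2 UMIs in the whole class. Gm4969, the gene called Meiosin, was at 4.99 CPM beside 0.72 CPM, under the 20 CPM needed to be compared, and Zglp1, a BMP-dependent regulator of the oogenic programme, at 4.52 CPM beside 4.50 CPM.

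The cell division lists and the remaining lists stand beside 1.68% of all genes compared higher and 1.29% lower. Of 29 replication genes, 2 were 2-fold higher, Ccne2 and Uhrf1, and none was lower, with a median log2 ratio of 0.02. Ccne2 and Uhrf1 reached 20 CPM in the early cells alone, so they could hardly have counted as lower. Of 24 mitotic genes, 1 was 2-fold lower and none higher, with a median of -0.32. That gene was Ccnb1, the cyclin of the mitotic kinase, at 118 CPM beside 256 CPM and 25.6 CPM in the late cells. Of the other lists, the apoptosis genes had 1 lower of 5 (Trp53) and the Wnt genes 2 higher of 9. The 2 Wnt genes were Ccnd1 and the transcription factor Sp5, the latter at 20 CPM in the early cells alone. No gene was past 2-fold in the lists for histones, germ granules, oocyte genes, Rhox genes (which leave out Rhox7a, at 24.5 beside 12.2 CPM), BMP and Id genes, cyst genes or cell stress. At the shares over all genes, lists this short would hold few such genes or none. The zeros are therefore no result about these lists, and counts of 1 or 2 rest on few genes.

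X-linked genes were more frequent among the genes higher in the early cells than among those lower, which is a description without a test. The X chromosome held 16 of the 88 (18.2%), 2 of the 68 lower genes (2.94%) and 186 of the 5251 compared (3.54%). Of the 16, all but 1700013H16Rik, Bex2 and Cited1 reached 20 CPM in the early cells alone and could hardly have counted as lower. Among the 16 were Taf7l, Cited1, Tex11 and Rhox7a. They also included Xlr, Xlr3b, Xlr3c, Xlr4a, Xlr4b and Xlr4c, near-identical copies between which reads cannot be placed with certainty, so these 6 do not count as independent genes. Xist, which coats an inactive X chromosome, had a UMI in 240 members (19.9%) and in 99.2% of mesenchymal cells, at a median of 13569 and 5772 UMIs per cell.

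The plot of gene levels by class follows the main genes from E12.5 to E16.5.

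**Figure D2:**
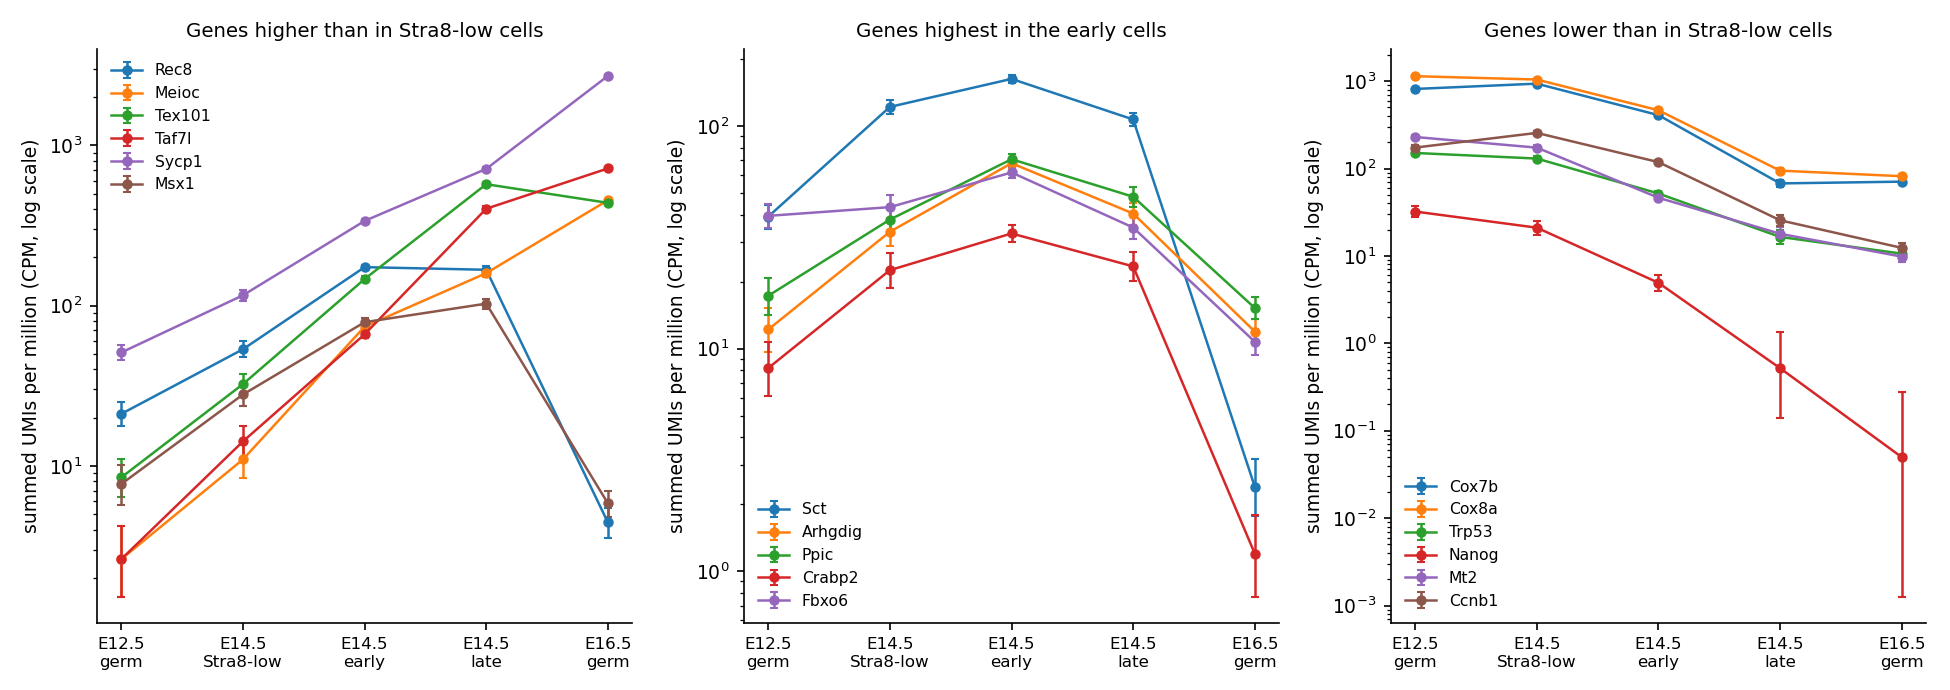
Level of named genes (y axis, CPM on a log scale, bars give Poisson 95% intervals for counting error) in 5 germ cell classes, the E12.5 cells, the Stra8-low, early and late cells of E14.5 and the E16.5 cells (x axis). At the left stand genes higher than in the Stra8-low cells, of which Rec8 and Msx1 are low again at E16.5. In the middle stand genes at their highest in the early cells, chosen after their values were seen, with Sct, and at the right genes lower than in the Stra8-low cells, with Nanog at 4.93 CPM in the early and 0.52 CPM in the late cells.

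Most genes past 2-fold between the early and the Stra8-low cells had intermediate levels in the early cells. Of the 88 genes higher than in the Stra8-low cells, 77 were higher still in the late cells, 54 of them by at least 2-fold, and 11 were lower there. Of the 68 lower genes, 63 were lower still in the late cells, 49 of them by at least 2-fold, and 5 were higher there. Over all 5251 genes compared, 2579 were higher in the late than in the early cells, 240 of them by at least 2-fold, and 2672 were lower, 304 by at least 2-fold. The early cells enter both ratios, so this order is a description of the 3 levels.

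Against the late cells, the differences were wider and more genes were lower than higher in the early cells. Of 5603 genes compared, 235 (4.19%) were at least 2-fold higher in the early cells and 482 (8.60%) at least 2-fold lower, around a median log2 ratio of -0.09. Of these, 165 of the higher and 243 of the lower genes reached 20 CPM only in the class where they are high. The lower genes held 1 haemoglobin gene, Hbb-y, and the erythroid markers summed to 1967 CPM in the early and 2666 CPM in the late cells. Of 8 measured cell stress genes, 2 were at least 2-fold higher, Jund and Dusp1, 1 of them at 20 CPM in the early cells alone. The part of these signals in the other differences was not tested.

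Prdm9 was the gene ranked first among those lower in the early cells, followed by H2-D1, Taf7l, Spdya and Dmrtc2. Prdm9, the histone methyltransferase that places meiotic breaks, stood at 5.80 CPM in the early and 79.8 CPM in the late cells, 13.8-fold lower. Of 24 measured break and recombination genes, 16 were lower and none higher, but 14 of the 24 and 12 of the 16 reached 20 CPM in the late cells alone. Of 9 synaptonemal complex and axis genes 8 were lower and none higher, 1 of which reached 20 CPM in the late cells alone. Spo11, the break-making enzyme, had a UMI in 10.6% of members. Figla, a transcription factor of the oocyte programme, was at 16.6 CPM beside 116 CPM, 6.98-fold lower. It was the sole oocyte gene of 5 past 2-fold, and reached 20 CPM in the late cells alone.

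Among the genes ranked lowest were H2-K1 and H2-D1, which encode class I histocompatibility proteins. H2-K1 stood at 5.94 CPM in the Stra8-low, 33.1 CPM in the early and 203 CPM in the late cells. H2-D1 stood at 3.42 CPM in the Stra8-low, 15.5 CPM in the early and 129 CPM in the late cells, which is 8.35-fold lower in the early than in the late cells. These are near-identical members of a gene family, so the division of reads between them is uncertain, although both were higher in the late cells.

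The genes ranked highest in the early over the late cells were Cox7b, at 408 beside 67.6 CPM (ratio 6.04), Phlda2, Cox8a, Dnd1, an RNA-binding protein of germ cells, and Ccnb1. Of 16 measured genes of the pluripotency and primordial germ cell list, 11 were at least 2-fold higher, 4 of them at 20 CPM in the early cells alone, and none lower, with a median log2 ratio of 1.38. Pou5f1 was at 239 CPM beside 83.6 CPM, Utf1 at 166 CPM beside 40.8 CPM and Dppa3 at 863 CPM beside 283 CPM. Phlda2, an imprinted growth-restraining gene, was at 548 CPM beside 96.2 CPM, 5.70-fold higher. Of 23 mitotic genes 5 were also higher, Ccnb1, Ccna2, Aurka, Plk1 and Ube2c, 2 of them at 20 CPM in the early cells alone, and none was lower. Replication genes split with 1 higher and 1 lower of 31.

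**Figure D3:**
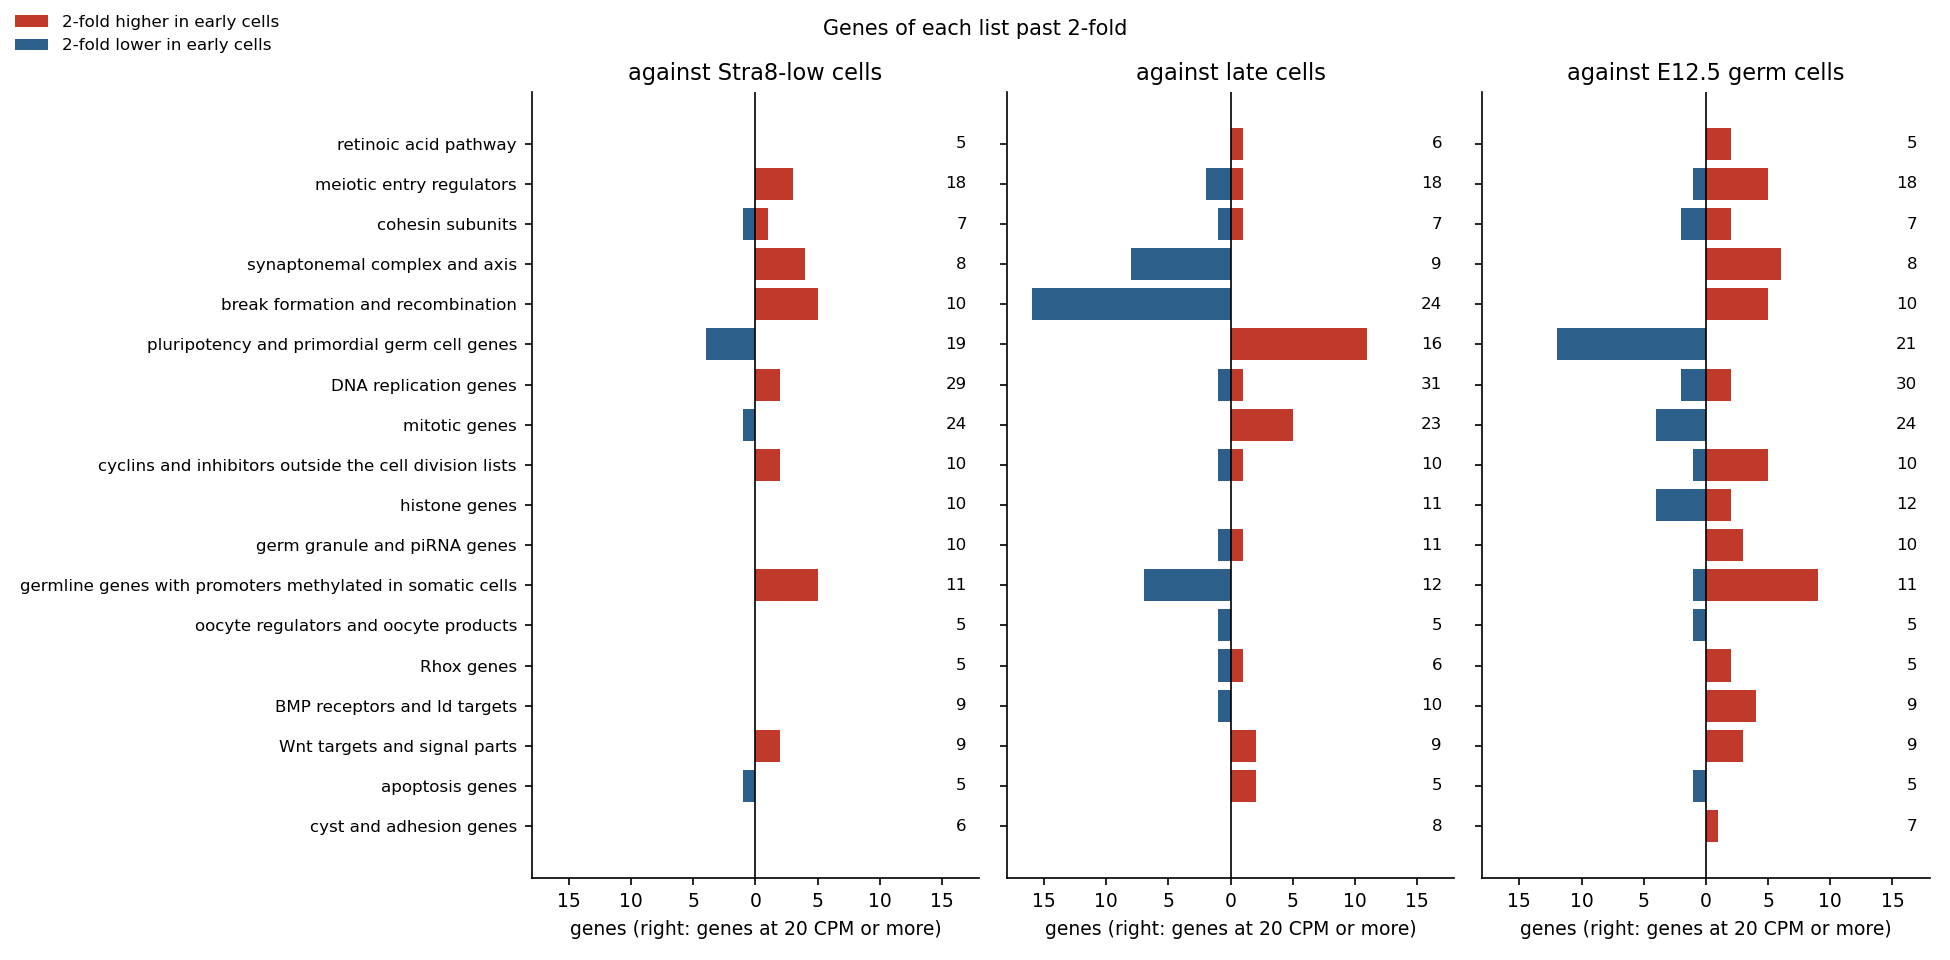
Number of genes of each fixed list (lists on the y axis, with the number compared at the right of each panel) at least 2-fold higher (to the right of 0) or lower (to the left) in the early cells than in the Stra8-low cells, the late cells and the E12.5 germ cells (x axis, number of genes, 1 panel per comparison). Synaptonemal and recombination genes stand to the right against the Stra8-low cells and to the left against the late cells, with 4 of 8 and 8 of 9 synaptonemal genes, and pluripotency genes do the reverse.

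Against the 283 germ cells of E12.5, the difference in age cannot be told apart from the difference in library, so 1770 mesenchymal cells of E12.5 and the 1306 of E14.5 were set beside it. The E12.5 germ cells were deeper, at a median of 23619 UMIs, and 15 of them (5.30%) had a Y-linked UMI beside 0 of the members. Of the mesenchymal cells, 150 at E12.5 (8.47%) and 0 at E14.5 had one, so the libraries differed in this respect in both cell types. Y-linked genes summed to 4.78 CPM in the E12.5 germ cells and 20.4 CPM in the E12.5 mesenchymal cells. The E12.5 cells therefore cannot be taken as all female, and the part of this in the differences was not tested. Of 5519 genes compared, 441 (7.99%) were at least 2-fold higher in the early cells and 385 (6.98%) at least 2-fold lower. Of these, 283 of the higher and 197 of the lower genes reached 20 CPM only in the class where they are high, and 2 higher and 3 lower genes were haemoglobin genes. The supporting cell markers summed to 140 CPM in the early cells and 50.4 CPM in the E12.5 germ cells, and their part in the differences was not tested. Hist1h2ap, a replication-dependent histone, stood at 990 CPM in E12.5 germ cells and 2.96 CPM in the early cells, and at 890 and 0.337 CPM in the mesenchymal cells, so it was lower at E14.5 also in a cell type that does not enter meiosis. Of the 441 higher genes, 281 reached 20 CPM in mesenchymal cells and 26 of them (9.25%) were 2-fold higher there too. Of the 385 lower genes, 275 did and 36 (13.1%) were lower there too. Over all genes compared, 4557 reached 20 CPM in mesenchymal cells, of which 69 (1.51%) were 2-fold higher and 135 (2.96%) 2-fold lower there, so the genes past 2-fold in germ cells were past it in mesenchymal cells more often than genes at large.

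Genes named above as higher than in the Stra8-low cells had wider ratios to E12.5. Meioc was 28.2-fold, Taf7l 25.3-fold, Tex101 17.3-fold, Msx1 10.2-fold, Cited1 9.99-fold, Rec8 8.23-fold and Ccnd1 6.90-fold higher. Sct was 4.16-fold higher than at E12.5, at 163 beside 39.1 CPM, but only 1.34-fold higher than in the Stra8-low cells. Among the BMP and Id genes, 4 of 9 were higher, beside 7.99% of all genes compared. These were Id2, Smad6, Id1 and Id4, of which 2 reached 20 CPM in the early cells alone. Other lists had larger counts. Of the germline genes with methylated promoters in somatic cells, 9 of 11 were higher and 1 lower. Of the synaptonemal complex and axis genes, 6 of 8 were higher. Age and library cannot be told apart for any of these. Id1 stood at 246 beside 103 CPM.

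Lower than at E12.5 were Hmgn5, a nucleosome-binding protein, by 12.3-fold, L1td1, an RNA-binding protein of pluripotent cells, by 11.9-fold and Mki67, a proliferation marker, by 5.88-fold. In mesenchymal cells Hmgn5 was at 72.5 and 75.5 CPM at E12.5 and E14.5, and Mki67 at 115 and 54.3 CPM. Mki67 was therefore lower at E14.5 in both cell types, while Hmgn5 was level in the mesenchymal cells. Of 21 measured pluripotency and primordial germ cell genes, 12 were lower, 5 of them at 20 CPM in the E12.5 cells alone, and none higher. Beside this stands 6.98% of all genes compared.

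Within the early cells, levels of named genes were followed along Stra8, the value that also bounds the class, so the order adds no support to the comparisons between classes. The 1142 members with at least 5000 UMIs were thinned to 5000 UMIs and ordered by Stra8 into a low group of 381 cells (300 to 903 CPM), a middle group of 381 (903 to 1685) and a high group of 380 (1686 to 4775). The 64 shallower members were left out. These groups are parts of 1 library, and their order is a description.

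Rec8 stood at 117, 175 and 266 CPM in the low, middle and high groups, a ratio of 2.27 between the outer groups. Meioc stood at 48.8, 86.6 and 121 CPM, Tex101 at 85.6, 158 and 252 CPM and Taf7l at 42.0, 50.9 and 133 CPM. Pou5f1 had the opposite order at 274, 243 and 165 CPM. Ccnb1 stood at 171, 115 and 33.7 CPM, and Cdc20, an activator of the anaphase-promoting complex, stood at 179, 128 and 53.2 CPM.

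As whole lists, mitotic genes summed to 3023, 2659 and 1933 CPM and replication genes to 3632, 3472 and 3507 CPM. The replication genes were therefore level across the Stra8 range while the mitotic genes were 0.640 of the low group's level in the high group. By single genes Mcm5 stood at 119, 140 and 175 CPM and Mcm6, another subunit of the replicative helicase, at 202, 178 and 154 CPM. Sct was also nearly level, at 145, 181 and 167 CPM (ratio 1.15, 95% interval 0.977 to 1.36). Supporting cell markers were 143, 154 and 126 CPM and erythroid markers 779, 3456 and 1628 CPM, with no shared order.

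Ordered by Sycp3 instead, Tex101 stood at 64.6, 161 and 269 CPM and Sycp1 at 229, 334 and 481 CPM. Rec8 stood at 151, 193 and 214 CPM and Sct at 165, 170 and 158 CPM. The outer groups differed 8.51-fold in Sycp3 here and 4.09-fold in Stra8 above, so the ratios along the 2 orders are not comparable.

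Depth moved with the same order. Before thinning, median UMIs were 15604, 14119 and 12737 in the low, middle and high Stra8 groups. Ordered by depth instead, Meioc stood at 115, 91.9 and 48.9 CPM and Ccnb1 at 78.7, 88.2 and 153 CPM from the shallowest to the deepest group, and Stra8 at 1578, 1503 and 1171 CPM. The part of depth, or of cell size, in these gradients was not tested.

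**Figure D4:**
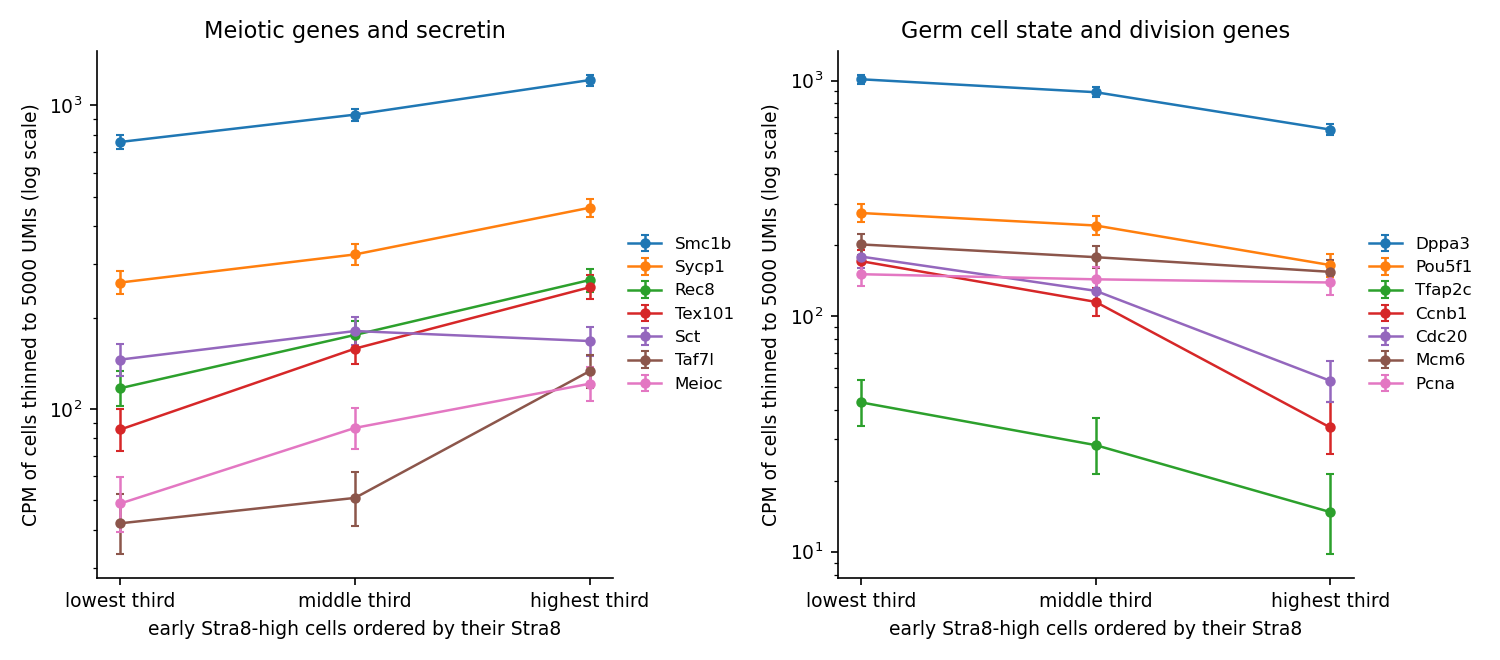
Level of named genes in the early cells, meiotic genes at the left and germ cell state and division genes at the right (y axis, CPM after thinning, log scale, bars give Poisson 95% intervals for counting error) in 3 groups of 381, 381 and 380 cells ordered by Stra8 (x axis). Rec8, Meioc, Tex101 and Taf7l are higher and Pou5f1 and Ccnb1 lower in the high group, and Sct stays between 145 and 181 CPM.

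At the level of single cells, Pou5f1 and Rec8 transcripts were found together. After thinning, Rec8 had a UMI in 58.8% of the 1142 members and in 5.5% of mesenchymal cells, and Sct in 54.1% and 1.3%. Pou5f1 had a UMI in 65.2% of members and 2.99% of mesenchymal cells. Pou5f1 and Rec8 were both found in 439 cells (38.4%). Rec8 was found in 58.9% of the cells with a Pou5f1 UMI and in 58.7% of the others. Before thinning, Pou5f1 had a UMI in 86.7% and Rec8 in 82.6% of members. Many cells without a UMI after thinning therefore had one before it, so this split cannot show whether the 2 genes vary together.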

How the data were processed

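The matrices hold UMI counts per gene and cell barcode, which the authors made with Cell Ranger 3.1.0 on mm10 and deposited without normalisation. The data were read in Python 3.11.15 (numpy 2.4.6, scipy 1.17.1, pandas 2.3.3, scanpy 1.11.5). No column was left unused (0). The members and gene lists were chosen with earlier results of these data known. Cells with at least 1000 genes were classed by the limits on Dazl, Ddx4, Wnt6, Stra8 and Sycp3 given in the report, and the Wnt6 limit removed 337 of 2593 cells (13.0%). Mesenchymal cells had at least 3 UMIs of Col1a1 and Nr2f2 together and none of Dazl and Ddx4. UMIs were summed per class, and CPM given with exact Poisson 95% intervals and ratios with exact conditional intervals. Genes at 20 CPM or more in either class were compared, without the rule genes, and counted as past 2-fold with no test. Named genes were the 10 with the largest and the 10 with the smallest fold after adding 10 CPM to each level, among genes at 50 CPM or more, without mitochondrial and haemoglobin genes, plus the rule genes, markers and up to 4 genes per list. Doublets were not removed. Scrublet called 55 members (4.56%), and leaving them out was 1 of the alternatives. Gene positions came from GENCODE on GRCm38 and promoter windows from RefSeq on GRCm38.p6. The calculation was tested on simulated data.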

Additional observations from a re-analysis of the deposited data

How the results depend on the processing

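The number of early cells stayed between 976 and 1402 over the alternatives tried. Counts of genes past 2-fold followed the limits. Against the Stra8-low cells, the 88 higher genes became 136 with Sycp3 under 800 CPM, 23 at 50 CPM, 378 at 5 CPM and 436 at 1.5-fold, and the 68 lower genes became 45 with Sycp3 under 400, 32 at 50 CPM, 170 at 5 CPM and 275 at 1.5-fold. Against the late cells, the 235 higher genes became 154 with Sycp3 under 400, 76 at 50 CPM, 666 at 5 CPM and 720 at 1.5-fold, and the 482 lower genes became 252, 770 and 1150 at 50 CPM, 5 CPM and 1.5-fold. Against E12.5, the 441 higher genes became 157, 1185 and 1069 and the 385 lower genes 192, 753 and 936 under the same changes. More genes pass a lower level or fold by construction. The ranked ratios were picked as the most extreme in these data and most settings reuse the same cells, so few losses could occur. Of 780 values for the 60 named ratios under 13 settings, 778 stayed past 2-fold and none turned direction. The exceptions were Cox8a against the Stra8-low cells with Sycp3 under 400, and Mt1 when the members were chosen on one part of the UMIs and measured on the other. Keeping cells with Wnt6 UMIs, an alternative chosen after seeing the data, gave 1402 members and 78 higher and 61 lower genes against the Stra8-low cells. No paired analysis was possible because each age had 1 library. With 1 library there is no spread between animals, and genes under 20 CPM in both classes, such as Gm4969, were not compared.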

Other observations

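Some genes reached their highest level in the early cells rather than before or after them, and were chosen after their values were seen. Of 5017 genes at 20 CPM or more in the early cells, 488 (9.73%) were highest there among 5 germ cell classes (E12.5, Stra8-low, early, late and E16.5), 85 by at least 1.2-fold and 10 by at least 1.5-fold over every other class. The E16.5 library, which shares 1 barcode with E14.5, is among these classes, and without it, as an alternative chosen after seeing the data, 714 genes (14.2%) were highest in the early cells, 110 by at least 1.2-fold and 12 by at least 1.5-fold. Tacc2, a centrosome-associated protein, was at 29.2 CPM in the early cells and 17.5 CPM in the next class. Fbxo6, a subunit of a ubiquitin ligase that recognises glycoproteins, was at 61.8 CPM, and Crabp2, which carries retinoic acid to its receptor, at 32.9 CPM in the early and 23.4 CPM in the late cells. The peaks were shallow, and their replication in a further library was not tested.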
